A study of Mus musculus with 9 samples.

Results

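This account concerns 10 genes that Wnt/beta-catenin signalling is known to switch on, most of which act back on the pathway: Axin2, Nkd1, Nkd2, Notum, Apcdd1, Znrf3, Rnf43, Lgr5, Ccnd1 and Myc. They were chosen by gene symbol, and all 10 were among the 13336 genes of the deposited table. RNA of mouse tracheal gland cells was sequenced in 5 Lef1KI libraries and 4 WT libraries, called here by the letters of their columns. Lef1KI cells came from ACTA2-CreERT2:Lef-1KI+/+ mice, which carry a tamoxifen-inducible Cre under a smooth muscle actin promoter and a Lef-1 knock-in allele, and were sorted as GFP-negative. WT cells came from ACTA2-CreERT2:ROSA-TG mice, which carry the same Cre with the ROSA-TG allele, and were sorted as GFP-positive. Sort gate and genotype changed together and cannot be told apart. The sources used here do not give the age or genetic background of the mice.

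Every library was a pool of 3 to 5 mice that had received tamoxifen on 5 days, and the cells were grown to passage 1 before sorting. Cultures of both genotypes received a GSK3 inhibitor of the CHIR series at 1 µM, which activates the pathway below its receptors. The medium of both also held DMH-1 and A83-01, at 1 µM each, and Y-27632 at 10 µM. Expression is given as TPM, a gene's share of all transcripts corrected for gene length and scaled to a fixed total, and tests were run on log2(TPM + 1). A gene is said to have risen or fallen only where its limma p, adjusted by Benjamini-Hochberg over all genes of the table, was under 0.05. All differences are Lef1KI minus WT.

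In canonical Wnt signalling, ligands bind Frizzled and LRP receptors, and a cytoplasmic destruction complex built on Axin and APC then stops marking beta-catenin for degradation. Beta-catenin enters the nucleus and binds TCF/LEF factors, of which Lef1 is one, at target genes. Several targets close a negative loop at different levels of the pathway: Notum at the ligand, Apcdd1, Znrf3 and Rnf43 at the receptor, Nkd1 and Nkd2 at Dishevelled, and Axin2 in the destruction complex. In the mouse airway Lef1 is known for its part in the budding of submucosal glands.

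Lef1 itself averaged 227 ± 79.8 TPM in Lef1KI against 0.448 ± 0.0763 TPM in WT (mean ± SD here and throughout, n = 5 and 4), and the lowest Lef1KI library had 139.33 TPM. The basal keratin genes Krt5 and Krt14 were at 5307.74 TPM or more in every library. Of 9 measured basal epithelial markers 0 rose and 1 fell, and of 10 luminal epithelial markers 0 rose and 1 fell. The summed levels of both lists overlapped between the groups. Acta2 encodes smooth muscle actin, and the Cre is under its promoter. Its level was 62.3 ± 31.2 TPM in Lef1KI against 128.9 ± 41.0 TPM in WT, with overlapping groups (difference −1.13, unadjusted limma p 0.00926, adjusted p 0.0834). Of 7 measured myoepithelial and contractile markers 1 rose and 1 fell. The intermediate filament gene Synm fell (−1.17, limma adjusted p 0.00477), the myosin light chain kinase gene Mylk rose (0.70, limma adjusted p 0.0448), and the smooth muscle myosin gene Myh11 had 0.742 ± 0.221 TPM in Lef1KI against 0.838 ± 0.865 TPM in WT. Markers of other cell types differed between the groups. Of 13 measured fibroblast and stromal markers 11 rose, and their summed level was 1518 to 4268 TPM in Lef1KI and 398 to 1064 TPM in WT. Of 10 endothelial markers 7 rose, with sums of 46.9 to 134 TPM in Lef1KI and 21.9 to 33.3 TPM in WT. None of these fibroblast or endothelial markers was at 0 in any library. Of 5 leukocyte markers 2 rose, and their sums overlapped, at 58.6 to 244 TPM in Lef1KI and 111 to 260 TPM in WT; Adgre1 and Coro1a were at 0 in at least 1 library.

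The 10 genes did not move together. Nkd2, Apcdd1 and Notum rose, none fell, and 7 did not pass the threshold. At an unadjusted limma p under 0.05, 3 were higher and 1, Axin2, was lower, where 18.7% of all genes were higher and 5.06% lower. At the adjusted threshold, 6.73% of all genes rose and 1.24% fell, together 7.97%. The groups did not overlap for the 3 genes that rose and overlapped for the other 7. Of all genes, 10.0% lay wholly higher and 1.89% wholly lower in Lef1KI, together 11.9%. The median difference of the 10 genes was 0.01, with 5 positive and 5 negative values, against a median of 0.141 over all genes. Median centring of the libraries moved that overall median to −0.018 and made rises 64.6% of all genes that changed, against 84.5% as deposited. The table itself holds only genes whose mean log2 value reached 3 SD in 1 or both groups. Of the 10 genes, 8 met this in both groups. Notum met it in Lef1KI, where it was higher, and fell just short in WT (mean over SD 7.58 in Lef1KI and 2.96 in WT). Lgr5 met it in WT alone (1.44 in Lef1KI and 4.38 in WT).

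**Figure D1:**
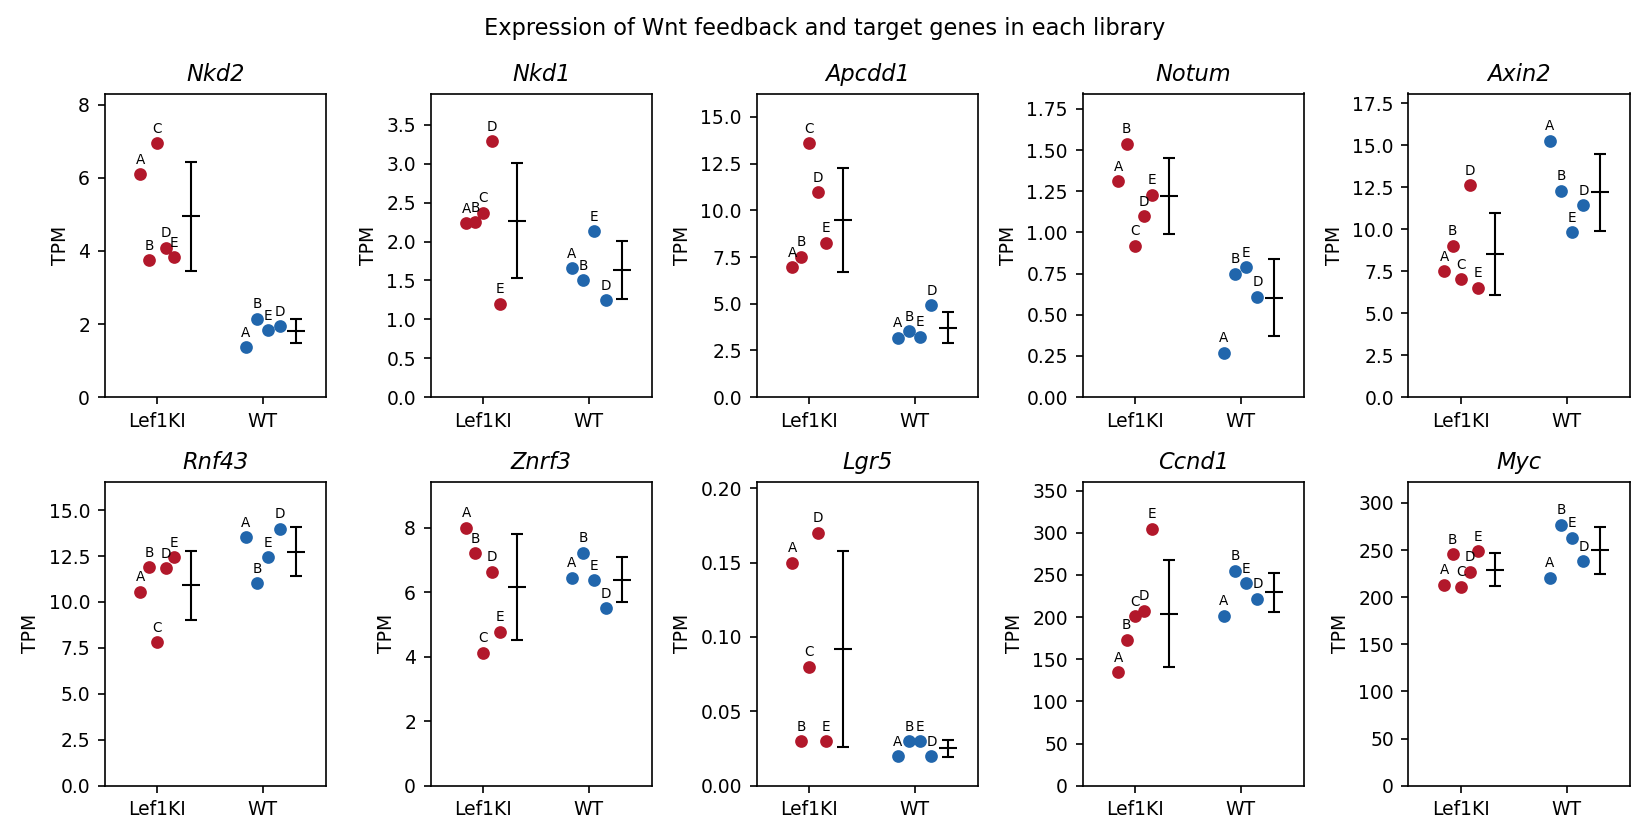
TPM of the 10 genes (y axis, linear, from 0) in each Lef1KI library (red) and each WT library (blue), marked by library letter, with the group mean and SD as a black bar. Nkd2, Apcdd1 and Notum were higher in all 5 Lef1KI libraries than in any WT library, while Axin2 lay lower in 4 of the 5 Lef1KI libraries than in any WT library.

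Nkd2 encodes a Naked cuticle protein, which binds Dishevelled and dampens the signal inside the cell (ENSMUSG00000021567, chromosome 13 from 73818534 to 73847631 on the minus strand, mm10). Lef1KI A to E had 6.10, 3.74, 6.94, 4.09 and 3.83 TPM of Nkd2, against 1.36, 2.14, 1.83 and 1.94 TPM in WT A, B, E and D. Lef1KI A and C stood above the other Lef1KI libraries, and the lowest Lef1KI library was still above the highest WT library. The mean was 2.72-fold higher, at 4.94 ± 1.48 TPM in Lef1KI and 1.82 ± 0.331 TPM in WT. On the log2 scale the difference was 1.05 (SE 0.19, 95% interval 0.63 to 1.47, limma adjusted p 0.00731). The exact permutation p was 0.0159, the smallest that 5 against 4 libraries allow. The call held whichever of the 9 libraries was left out, with differences of 0.94 to 1.12, and after median centring (0.89). In RNA pooled over many cells, more cells of a type and more RNA per cell cannot be told apart.

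Its paralog Nkd1 behaved less clearly. Nkd1 had 2.24, 2.25, 2.37, 3.29 and 1.20 TPM in Lef1KI A to E, against 1.66, 1.5, 2.13 and 1.25 TPM in WT A, B, E and D. Lef1KI E was the lowest of all libraries and the other 4 Lef1KI libraries were above every WT library. The difference of 0.29 (95% interval −0.12 to 0.70) did not pass (limma adjusted p 0.36). Nkd2 made up 68.3% ± 9.0 of the summed TPM of both paralogs in Lef1KI and 52.7% ± 8.24 in WT (SD, n = 5 and 4; exact permutation p 0.0635), and the ranges overlapped.

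To show what lies directly before the start of a gene that rose and of one that did not, the 250 bases upstream of the annotated starts of Nkd2 and Axin2 are given 5′ to 3′ on the strand of the gene (RefSeq, GRCm38.p6; Nkd2 at chr13:73847632-73847881, minus strand, and Axin2 at chr11:108920099-108920348, plus strand).
Nkd2: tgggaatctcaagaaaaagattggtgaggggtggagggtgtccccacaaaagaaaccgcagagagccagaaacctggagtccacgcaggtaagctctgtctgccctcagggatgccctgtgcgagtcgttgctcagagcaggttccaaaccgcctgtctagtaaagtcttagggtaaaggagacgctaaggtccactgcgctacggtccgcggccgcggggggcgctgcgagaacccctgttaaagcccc
Axin2: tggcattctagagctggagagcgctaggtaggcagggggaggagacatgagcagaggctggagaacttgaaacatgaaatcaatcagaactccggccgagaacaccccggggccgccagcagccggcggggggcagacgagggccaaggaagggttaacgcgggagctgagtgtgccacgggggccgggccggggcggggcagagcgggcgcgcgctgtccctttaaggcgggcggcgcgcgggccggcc
The TCF/LEF motifs CTTTGAT and CTTTGAA, searched on both strands, were found in neither window, nor was their shared core CTTTG, so no letters are capitalised. Of 32851 RefSeq windows of this length, 7.48% held CTTTGAT or CTTTGAA and 48.6% held the core. The Axin2 window was richer in G and C, at 69.2% against 58.4% for Nkd2. No match says only that these letters are not in these windows.

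Apcdd1 encodes a membrane glycoprotein that binds Wnt and LRP proteins at the cell surface and inhibits signalling, as described for the human protein (ENSMUSG00000071847, chromosome 18 from 62922231 to 62961179 on the plus strand). It had 6.95, 7.52, 13.60, 10.97 and 8.27 TPM in Lef1KI A to E, against 3.18, 3.52, 3.23 and 4.93 TPM in WT A, B, E and D. Lef1KI C and D were highest, and WT D stood above the other WT libraries but below every Lef1KI library. Apcdd1 was 2.55-fold higher, with 9.46 ± 2.78 TPM in Lef1KI and 3.72 ± 0.824 TPM in WT. Its difference of 1.13 (SE 0.21, 95% interval 0.66 to 1.59) was the largest of the 10 genes (limma adjusted p 0.00826, exact permutation p 0.0159). The call held whichever of the 9 libraries was left out (1.0 to 1.24) and after median centring (0.97).

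Notum encodes a secreted carboxylesterase that removes the lipid of Wnt ligands and so inactivates them (ENSMUSG00000042988, chromosome 11 from 120653788 to 120661175 on the minus strand). Its level was low: 1.31, 1.54, 0.92, 1.10 and 1.23 TPM in Lef1KI A to E, against 0.27, 0.75, 0.79 and 0.61 TPM in WT A, B, E and D. The highest WT library, E, came close to the lowest Lef1KI library, C, and WT A lay far below the other WT libraries. The mean was 2.02-fold higher, at 1.22 ± 0.232 TPM in Lef1KI and 0.605 ± 0.236 TPM in WT. The difference of 0.47 (SE 0.13, 95% interval 0.19 to 0.76) passed narrowly (limma adjusted p 0.0482, exact permutation p 0.0159). The call ended when any 1 library other than Lef1KI C was left out, in 8 of 9 fits, with differences of 0.37 (without WT A) to 0.53 and adjusted p up to 0.0985. It ended as well under median centring, where the difference was 0.32. The annotation places Notumos and Myadml2os on the opposite strand over Notum. The libraries were stranded, but the sources used here do not say whether the counting used strand. Whether reads of these genes entered the values of Notum is therefore not known. Other genes also lie over Nkd2 (Gm8062), Axin2 (Gm11670) and Lgr5 (A930009A15Rik) on the opposite strand. Gm45496 lies over Nkd1 on the same strand. Over Rnf43 lie 1110028F11Rik on the same strand and Gm25968 on the opposite strand.

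Like these 3 genes, the fibroblast and stromal marker sum was higher in all 5 Lef1KI libraries than in any WT library. It was 3788, 2002, 4268, 3402 and 1518 TPM in Lef1KI A to E, against 398, 805, 605 and 1064 TPM in WT A, B, E and D. Lef1KI C had the highest sum and the most Nkd2 and Apcdd1 but the least Notum of its group, and Lef1KI A, with the next highest sum, had the next most Nkd2 but the least Apcdd1. Within WT the libraries had the same order in Apcdd1 as in the sum, with D highest and A lowest, while Nkd2 was highest in WT B and Notum in WT E. The endothelial marker sum was 46.9, 47.8, 117, 134 and 91.7 TPM in Lef1KI A to E. In WT A, B, E and D it was 33.3, 28.4, 21.9 and 24.7 TPM. Among Lef1KI libraries this sum and Apcdd1 were both lowest in A and B and highest in C and D. Within WT, library A had the highest endothelial sum but the least Apcdd1. The part of stromal or endothelial RNA in these results was not tested. The level of Lef1 itself was 210, 312, 309, 139 and 166 TPM in Lef1KI A to E. The pair with the most Lef1, B and C, held the lowest and the highest level of Nkd2 and the highest and the lowest level of Notum among Lef1KI libraries.

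Axin2, the scaffold of the destruction complex and a widely used readout of beta-catenin activity, did not pass and was lower on average in Lef1KI (ENSMUSG00000000142, chromosome 11 from 108920349 to 108950783 on the plus strand). Its levels were 7.48, 9.0, 7.01, 12.60 and 6.52 TPM in Lef1KI A to E, against 15.25, 12.28, 9.81 and 11.43 TPM in WT A, B, E and D. Apart from Lef1KI D, each Lef1KI library was below every WT library. The mean was 8.52 ± 2.46 TPM in Lef1KI and 12.2 ± 2.28 TPM in WT. The difference was −0.49 (SE 0.20, 95% interval −0.94 to −0.04), with an unadjusted limma p of 0.035 and an adjusted p of 0.177. Leaving out Lef1KI D gave the difference of −0.63 with the smallest adjusted p of these fits, 0.0719. The interval, which is not adjusted for the number of genes, lies below 0. Axin1, the constitutive paralog, had 28.4 ± 3.95 TPM in Lef1KI against 24.7 ± 1.59 TPM in WT (difference 0.19, limma adjusted p 0.381).

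**Figure D2:**
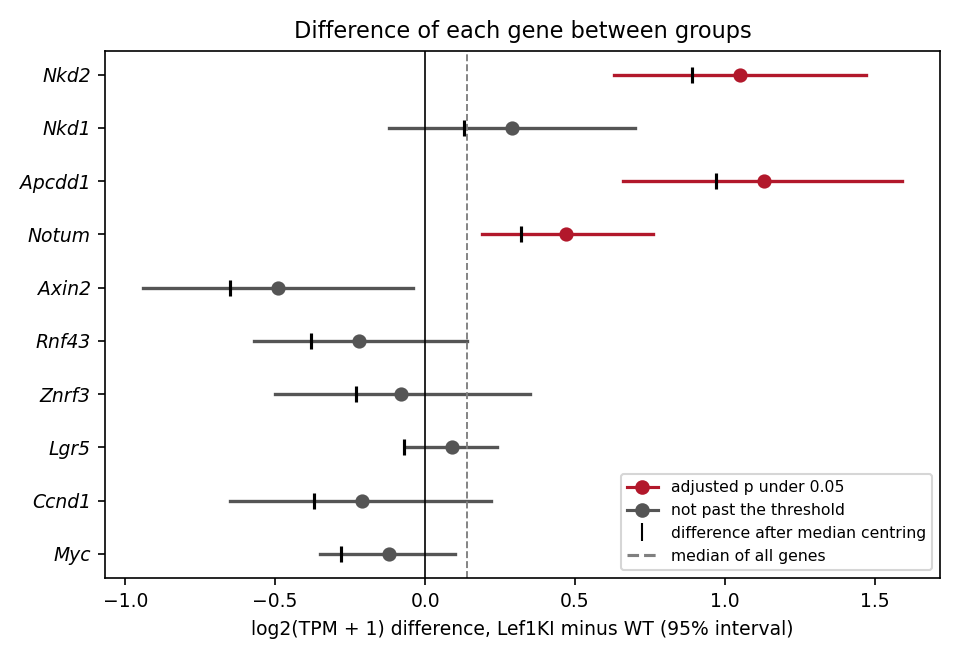
Difference of each gene on the log2(TPM + 1) scale (x axis, Lef1KI minus WT) with its 95% limma interval, for the genes in order of role (y axis). Red marks genes past the threshold, black ticks the difference after median centring, and the dashed line the median of all genes at 0.141; the intervals of Nkd2, Apcdd1 and Notum lie to the right of it and that of Axin2 lies below 0.

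Rnf43 and Znrf3 encode membrane E3 ubiquitin ligases that remove Frizzled receptors from the cell surface. Rnf43 had 10.55, 11.88, 7.80, 11.83 and 12.45 TPM in Lef1KI A to E, against 13.53, 11.01, 12.43 and 13.98 TPM in WT A, B, E and D. Only Lef1KI C lay clearly apart, below the rest. The difference of −0.22 (95% interval −0.57 to 0.14) did not pass (limma adjusted p 0.426). Znrf3 had 8.0, 7.22, 4.12, 6.64 and 4.78 TPM in Lef1KI A to E, against 6.45, 7.23, 6.38 and 5.51 TPM in WT A, B, E and D. Lef1KI libraries held both the highest and the lowest values of Znrf3, on either side of all WT libraries. Its difference was −0.08 (95% interval −0.50 to 0.35, limma adjusted p 0.835). Rnf43 made up 64.2% ± 5.57 of the summed TPM of the ligase pair in Lef1KI and 66.5% ± 4.71 in WT (exact permutation p 0.54).

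Lgr5 encodes a receptor for R-spondins, proteins that clear Rnf43 and Znrf3 from the membrane, and marks stem cells of the intestine. It was close to absent, at 0.15, 0.03, 0.08, 0.17 and 0.03 TPM in Lef1KI A to E and 0.02, 0.03, 0.03 and 0.02 TPM in WT A, B, E and D. In Lef1KI A, C and D it was above every WT library, at levels far under 1 TPM. The difference was 0.09 (95% interval −0.06 to 0.24, limma adjusted p 0.438), and it became −0.07 under median centring. The related receptor Lgr4 was the main one measured, with 10.8 ± 2.84 TPM in Lef1KI and 16.8 ± 3.74 TPM in WT. Its difference of −0.60 (95% interval −1.05 to −0.14) did not pass as deposited (limma adjusted p 0.11) but did after median centring (−0.76, adjusted p 0.0453).

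The growth genes of the set were expressed strongly in both groups. Ccnd1 encodes cyclin D1, which drives entry into the cell cycle, and had 134.67, 173.14, 200.68, 207.43 and 304.66 TPM in Lef1KI A to E, against 201.57, 255.13, 239.91 and 221.51 TPM in WT A, B, E and D. The Lef1KI libraries spread on either side of all WT libraries, E being the highest and A the lowest. The difference was −0.21 (95% interval −0.65 to 0.22, limma adjusted p 0.521). Another gene, LTO1, lies over Ccnd1 on the opposite strand. Myc encodes the transcription factor c-Myc and had 213.15, 245.69, 210.94, 227.11 and 248.87 TPM in Lef1KI A to E, against 220.59, 276.84, 262.88 and 237.93 TPM in WT A, B, E and D. Its SD was the smallest of the 10 genes relative to its level in Lef1KI, with 229 ± 17.7 TPM in Lef1KI and 249.6 ± 25.1 TPM in WT. The difference of −0.12 (95% interval −0.35 to 0.10) did not pass (limma adjusted p 0.486).

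Because TPM is corrected for length, the levels of the 10 genes can be ordered. In both groups Myc and Ccnd1 stood at the top, above all other genes of the set in every library, and Notum and Lgr5 at the bottom by mean. The middle of the order differed. In Lef1KI the means of Rnf43, Apcdd1, Axin2, Znrf3 and Nkd2 followed each other at 10.9, 9.46, 8.52, 6.15 and 4.94 TPM, and the ranges of each neighbouring pair overlapped. In WT the means of Rnf43 and Axin2, at 12.7 and 12.2 TPM, had overlapping ranges, and Znrf3 (6.39 TPM), Apcdd1 (3.72 TPM) and Nkd2 (1.82 TPM) followed with ranges that did not overlap their upper neighbour. Nkd1, at 1.63 TPM, overlapped with Nkd2 in WT. In Lef1KI the range of Nkd2 lay wholly above that of Nkd1.

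Whether the genes differed in their response was examined within libraries, by subtracting the log2 value of one gene from that of another in the same library, which removes scaling between libraries except for the effect of the pseudocount on low genes. The adjusted values here are over 15 such pairs. Apcdd1 minus Axin2 was 0.13 ± 0.46 in Lef1KI and −1.48 ± 0.37 in WT (SD, n = 5 and 4), a difference of 1.62. Nkd2 minus Axin2 was −0.68 ± 0.58 in Lef1KI and −2.22 ± 0.38 in WT, a difference of 1.54. In both cases every Lef1KI library was above every WT library, and the same held for Nkd1 minus Axin2 (0.78) and Lgr5 minus Lgr4 (0.69). Each of these 4 pairs reached the smallest exact permutation p of the design, 0.0159, which became 0.0595 after Benjamini-Hochberg adjustment over the pairs. For Nkd1 minus Axin2 and Lgr5 minus Lgr4, most of the gap lay in the gene subtracted. Nkd1 and Lgr5 differed by 0.29 and 0.09, Axin2 and Lgr4 by −0.49 and −0.60, and none of these passed as deposited. Notum minus Axin2 differed by 0.96 with overlapping groups (exact permutation p 0.0317, adjusted 0.068).

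Paralogs were compared in the same way. Nkd2 minus Nkd1 was 0.86 ± 0.44 in Lef1KI and 0.10 ± 0.30 in WT (difference 0.76, exact permutation p 0.0476, adjusted 0.0794). Axin2 minus Axin1 was −1.65 ± 0.49 in Lef1KI and −0.98 ± 0.28 in WT, a difference of −0.68 with the same p-values. Ccnd1 minus Ccnd2 was 0.35 ± 0.09 in Lef1KI and 0.59 ± 0.17 in WT, and Lef1KI E overlapped the WT range (difference −0.24, exact permutation p 0.0317, adjusted 0.068). For Znrf3 minus Rnf43 the difference was 0.14 (exact permutation p 0.508). No pair passed an adjusted p of 0.05, while 9 of the 15 had an unadjusted exact p under 0.05. Most of the pairs hold Axin2, itself lower on average in Lef1KI (difference −0.49), so they are not independent. The same count was not made for pairs drawn from all genes. With a pseudocount of 0.1 in place of 1, 5 pairs passed at an adjusted p of 0.0476: Nkd2, Notum, Apcdd1 and Lgr5 against Axin2, and Lgr5 against Lgr4. All 5 were at the smallest exact permutation p, 0.0159, which 4 pairs shared with a pseudocount of 1. Passing thus turned on whether 5 or 4 pairs shared that p. Lgr5 was at 0.02 to 0.17 TPM. Its differences against Axin2 and Lgr4 were 0.58 and 0.69 with a pseudocount of 1, and 1.09 and 1.19 with 0.1.

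**Figure D3:**
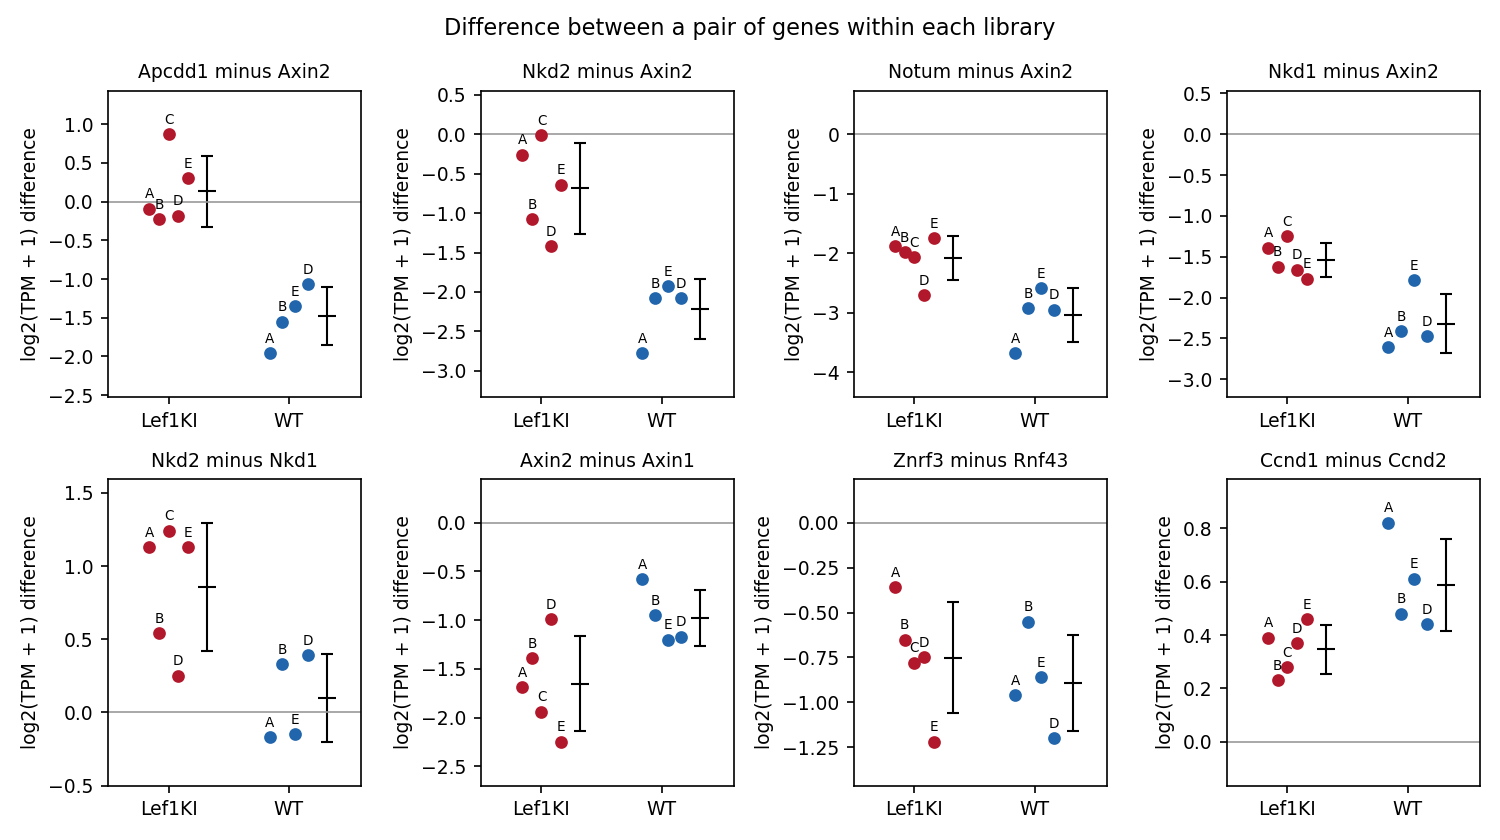
Difference between the log2(TPM + 1) values of a pair of genes within each library (y axis) for 8 of the 15 pairs, in Lef1KI (red) and WT (blue), with group mean and SD in black. Apcdd1 minus Axin2 and Nkd2 minus Axin2 separate the groups by 1.62 and 1.54, whereas Znrf3 minus Rnf43 overlaps throughout.

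Leaving out the 10 genes and Lef1, 176 pathway gene symbols were listed, some of them older and newer symbols of the same gene. Of these, 140 were measured, of which 13 rose and none fell. At an unadjusted limma p under 0.05, 39 were higher (27.9%, against 18.7% of all genes) and 6 lower (4.29%, against 5.06%). Without Lef1KI A, 20 rose, and with any other library left out 11 to 19 did. With all libraries, the 13 that rose were 9.29% of the 140, against 6.73% of all genes, and the median difference of 0.14 equalled that of all genes. Once libraries were centred on their medians, 3 pathway genes were called lower, namely Id2, Lgr4 and Wnt6. Of 8 measured secreted or membrane-bound inhibitors 4 rose, and the median difference of this list was 0.56. Sfrp2, a decoy that binds Wnt ligands, had 6.26 ± 1.83 TPM in Lef1KI against 1.49 ± 0.274 TPM in WT (difference 1.51, limma adjusted p 0.00121). Igfbp4, an IGF-binding protein that also binds Frizzled and LRP receptors, had 278.5 ± 112.5 TPM in Lef1KI against 57.6 ± 11.1 TPM in WT (2.15, limma adjusted p 0.00247). Dkk3 and Frzb rose too, by 1.75 and 0.67, although the call of Frzb ended under median centring (0.51, limma adjusted p 0.0879). Both are named outside the naming rule after their values were seen. Frzb, counted among the 4 and the 13, reached 3 SD in Lef1KI alone, where it was higher. Its mean over SD was 7.65 in Lef1KI and 2.23 in WT, so it is in the table only through Lef1KI.

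At the level of agonists and receptors, the R-spondin genes Rspo1 and Rspo3 rose, the only R-spondins measured. Rspo1 reached 3 SD in Lef1KI alone (mean over SD 3.74 in Lef1KI and 1.12 in WT). It is thus in the table, and among the 13, only through the group where it was higher. Rspo1 had 1.70 ± 0.723 TPM in Lef1KI against 0.183 ± 0.172 TPM in WT (difference 1.17, limma adjusted p 0.0038), and Rspo3 had 4.24 ± 1.42 TPM in Lef1KI against 1.41 ± 0.553 TPM in WT (1.11, limma adjusted p 0.0173). Of 18 Frizzled, LRP and co-receptor genes 2 rose, the receptor tyrosine kinase gene Ror1 (1.19) and Fzd1 (0.92). The call of Fzd1 ended without Lef1KI C, without Lef1KI D or without WT E, with limma adjusted p of 0.0585, 0.0546 and 0.0641. None of 12 ligand and secretion genes passed (unadjusted, 3 higher and 1 lower), and Wnt5a, at 0.96, had the smallest adjusted p of them (limma, 0.0667). Inside the cell, Dact3, which encodes a Dishevelled-binding antagonist, rose by 0.68 to 1.41 ± 0.304 TPM in Lef1KI, against 0.495 ± 0.123 TPM in WT, as the only one of 14 Dishevelled-related genes. None of 19 genes of the destruction complex and beta-catenin passed (unadjusted, 2 higher and 0 lower), where the tankyrase gene Tnks2 came nearest (0.34, limma adjusted p 0.0514). The Groucho co-repressor gene Tle4 rose by 0.93 as 1 of 16 TCF/LEF partners, and its call ended without WT E (0.86, limma adjusted p 0.0564).

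Among 33 other genes reported as beta-catenin targets, 3 rose and the median difference was 0.04. Lbh, a transcription cofactor gene, had 11.5 ± 3.0 TPM in Lef1KI against 3.63 ± 1.70 TPM in WT (difference 1.47, limma adjusted p 0.00556). The zinc finger gene Zfp703 had 41.5 ± 6.81 TPM in Lef1KI against 24.7 ± 2.61 TPM in WT (0.72, limma adjusted p 0.00941). Cdkn2a, whose products restrain the cell cycle rather than drive it, rose by 0.94 and is named outside the rule. None of 18 partners of D cyclins and Myc passed (unadjusted, 2 higher and 1 lower). Of the other D cyclins, Ccnd2 had 159 ± 42.3 TPM in Lef1KI against 154 ± 29.3 TPM in WT (difference 0.02), and Ccnd3 had 71.6 ± 14.7 TPM in Lef1KI against 52.8 ± 7.90 TPM in WT (0.43, limma adjusted p 0.13), with groups that did not overlap. The stromal marker sum given above was higher in all 5 Lef1KI libraries than in any WT library, as were all 13 pathway genes that rose. Of all genes, 10.0% lay wholly higher in Lef1KI in this way, so the match alone says little. The part of stromal RNA in those rises was not tested.

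**Figure D4:**
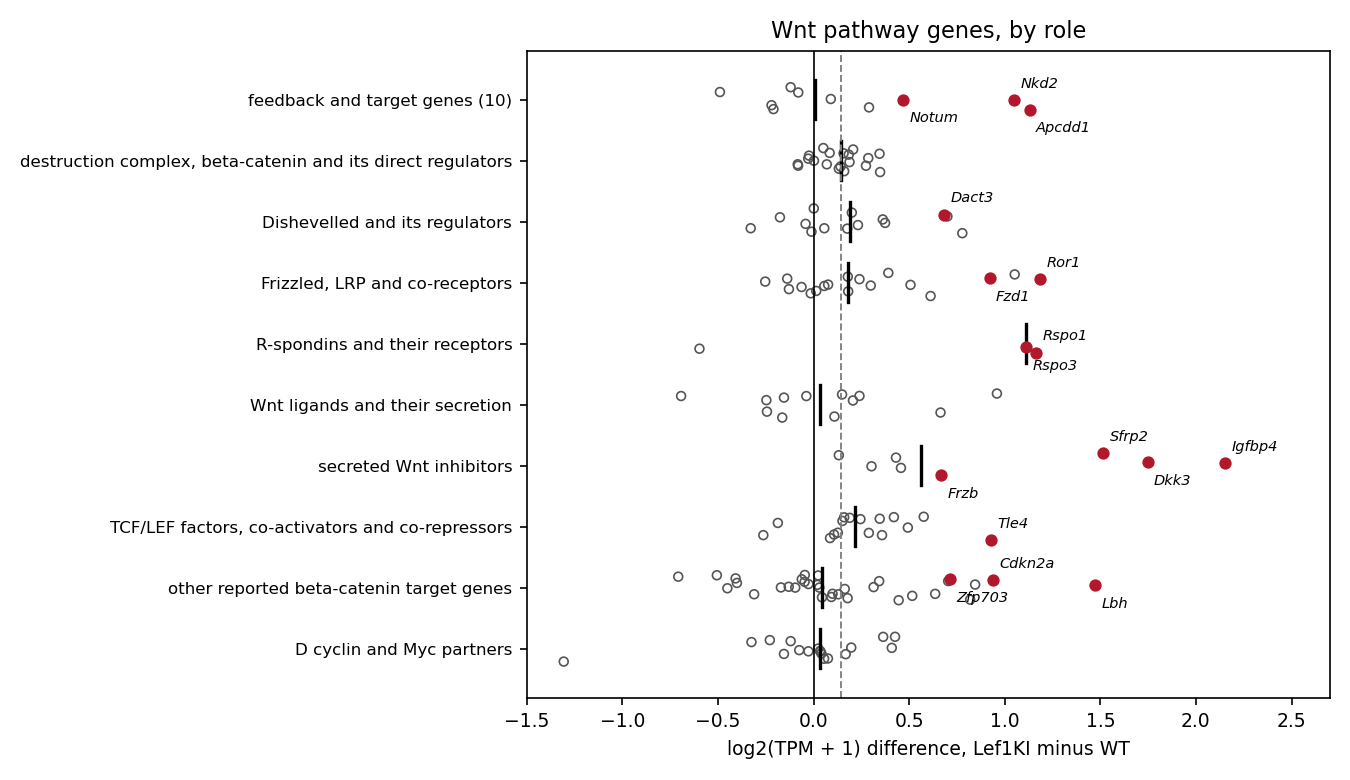
Difference of each measured pathway gene (x axis, log2(TPM + 1), Lef1KI minus WT), grouped by role (y axis), with the 10 feedback and target genes in the top row. Filled red points are past the threshold and named, black bars are group medians, and the dashed line is the median of all genes. The row labelled as secreted inhibitors, some of them membrane-bound, holds 4 rises among 8 genes. The destruction complex and ligand rows hold none.

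For each of the genes that rose, the most similar profiles were looked up over the 9 libraries as the smallest mean absolute difference of log2 values after centring each gene on its own mean, among 12044 genes with descriptive symbols. Nkd2 was closest to Hhipl1, Capn6 and Barx1, with mean differences of 0.079, 0.085 and 0.087. Apcdd1 was closest to Fam26e, Ntn1 and Nfkbie (0.103, 0.106 and 0.119), and Notum to Hivep2, Snrk and Traf6 (0.073, 0.091 and 0.098). Neither Nkd2 nor Apcdd1 was among the 3 nearest genes of the other. With 3 places among 12044 genes, this says little about how alike they are.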

How the data were processed

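Stranded mRNA libraries (TruSeq, per the labels' protocols) of 5 Lef1KI and 4 WT pools were used. The deposited values are log2(TPM + 1), made by the authors with RSEM on mm10, per the submitters' processing notes; the sources used here give no further tools or versions. As a check of the unit, 100.0% of values under 50 TPM were whole hundredths of a TPM (tolerance 0.01 of a hundredth), and libraries summed to 99.6% to 99.84% of the total that TPM reach. TPM keeps no read depth, so depth and counting error are unknown and errors are SDs between libraries; nothing says whether pools shared a culture day. The authors' log2 group means and SDs were recomputed to within 8e-09. No library pair shared more than 71 equal values above 0.

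The group difference was fitted by limma 3.58.1 under R 4.3.3 (intensity trend, two-sided, Benjamini-Hochberg adjustment) on all 13336 genes as deposited. Single values were compared by an exact two-sided permutation test (scipy 1.17.1). The fit was tested on simulated data. The naming rule takes the 10 genes, Lef1, their paralogs and, per pathway list, up to 2 called genes per direction or else the one with the smallest adjusted p. The genes, pairs and lists were chosen with earlier results of these data known. Mycn, planned as a partner of Myc, is not analysed here. The trimmed-mean scaling used the mean of log2 ratios to the mean library with 30% trimmed from each side, over genes with a mean log2 value of at least 1. Alternatives were 2 scalings, 2 pseudocounts, a minimum mean of 1 TPM, no trend, leaving out each library, and a block. Positions are from GENCODE M21 (mm10), which held 13280 of the gene IDs.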

Additional observations from a re-analysis of the deposited data

Results flagged for a closer look

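Library Lef1KI C stood apart from the other Lef1KI libraries in Ccnd3, the cyclin D3 gene, with 97.64 TPM, against 62.34 to 68.31 TPM in Lef1KI A, B, D and E. In WT the gene had 42.68 to 61.04 TPM. It was the only one of 60 sets of values (15 genes and 15 gene pairs in each group) whose extreme library passed Dixon's limit, where chance flags about 1 in 20. Without Lef1KI C the difference of Ccnd3 was 0.31 instead of 0.43, and neither passed.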

How the results depend on the processing

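Nkd2 and Apcdd1 kept their calls under both scalings, both pseudocounts, the minimum of 1 TPM, no trend and all 9 fits without a library. The call of Notum ended under every one of these where it was tested, except without Lef1KI C, and a minimum of 1 TPM over all libraries removed the gene and Lgr5. The number of the 10 genes that rose was 2 to 3 over the fits without a library, and none fell in any fit. Same-letter columns correlated at −0.259 (A), 0.02 (B), 0.258 (D) and −0.148 (E) in their deviations from the group means. Columns of different letters correlated at −0.21 to 0.224. These few values cannot decide whether the letters pair the libraries, and the labels' replicate numbers are tied to no column. With the letter as a replicate block, which leaves out Lef1KI C in effect, 1 of the 10 genes rose (Apcdd1; Nkd2 had a limma adjusted p of 0.0646) and 8 pathway genes did. Pathway genes that rose numbered 11 to 20 over the fits without a library, 20 being without Lef1KI A, and those that fell 0 to 1, against 3 under median centring. Pairs past an adjusted p of 0.05 numbered 5 with a pseudocount of 0.1 and 0 as reported; fits without a library gave values only for pairs. Differences that changed sign were those of Znrf3, from −0.17 to 0.04 over the fits without a library (0.04 without Lef1KI C and with the block), and Lgr5 (−0.07 with median centring), neither past the threshold. The cause of these changes was not tested. A pseudocount of 1 is larger than the TPM of Lgr5 in every library and of Notum in the WT libraries and Lef1KI C, and smaller than that of Notum in the other Lef1KI libraries (1.10 to 1.54 TPM).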

Other observations

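Of the D cyclin genes, Ccnd1 and Ccnd2 spread within the Lef1KI group in the same order at its ends. Ccnd3 did not, with the most in Lef1KI C (97.64 TPM) and the least in Lef1KI B (62.34 TPM). Lef1KI E had the most Ccnd1 and Ccnd2 of all 9 libraries, at 304.66 and 220.56 TPM, and Lef1KI A the least of both, at 134.67 and 102.39 TPM. The summed level of 10 proliferation markers, genes of DNA replication and mitosis, was 428, 522, 470, 427 and 743 TPM in Lef1KI A to E, against 764, 514, 478 and 521 TPM in WT A, B, E and D. Lef1KI E was thus the highest of its group in Ccnd1, Ccnd2 and the marker sum. WT A had the highest marker sum of all libraries but the lowest Ccnd1 and Ccnd2 of its group (201.57 and 113.58 TPM). None of the 10 markers passed the threshold between the groups. The proliferation gene Mki67 had 13.5 ± 4.90 TPM in Lef1KI against 12.7 ± 2.52 TPM in WT (limma adjusted p 0.941).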
